A study of Mus musculus with 9 samples.

Results

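Colony-stimulating factor 1 (Csf1), the growth factor of macrophages, and 9 transcripts of myeloid cells were followed through luminal epithelium of the mouse uterus on pregnancy day 4. The 10 genes were taken by symbol from 15158 in the deposited expression table: Csf1, Csf1r, Tyrobp, Fcer1g, C1qa, C1qb, C1qc, Adgre1, Laptm5 and Cd52. They were proposed with results of these same libraries known, so their levels, differences and calls between genotypes are given as a description, and no test is drawn from them. The study compared 3 genotypes with 3 libraries each. The controls, Wnt7acre, carried the cre recombinase alone. A further allele was combined with it in each of the others: PgrALsL, for overexpression of the A isoform of the progesterone receptor in epithelium, in ePRAoe mice (Wnt7acre/+PgrALsL/+), and PgrBLsL, for the B isoform, in mice called ePRBoe (Wnt7acre/+PgrBLsL/+). All 9 libraries therefore carry the Wnt7acre allele, and no group had a PgrALsL or PgrBLsL allele without it. Females were kept to 8 weeks of age, mated with stud males, and their luminal epithelium was taken by laser capture. The labels number the libraries as bioreplicates without naming animals. The p-values measure only the spread between these libraries, and how many animals stand behind each is not stated.

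As background, CSF1 acts through its receptor CSF1R, a tyrosine kinase of the monocyte and macrophage lineage, and keeps these cells alive and dividing. In the mouse uterus the epithelium is a well-known source of CSF1, under control of estrogen and progesterone, and macrophages lie in the stroma and beneath the epithelium around implantation. The other members read the leukocytes themselves: TYROBP and FCER1G are signalling adaptors, C1QA, C1QB and C1QC form complement C1q, ADGRE1 is the F4/80 antigen, and LAPTM5 and CD52 occur in most leukocytes.

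Expression was given as FPKM (fragments counted on a gene, divided by its length and the library's size), so levels can be set beside each other between genes. The labelled epithelium was supported by its markers: 12 luminal epithelium genes summed to 1866 to 2191 FPKM in Wnt7acre, 1538 to 2237 in ePRAoe, with 1949 to 2174 in ePRBoe, with Krt18, a keratin named after its values were seen, at 357 ± 30.4, 318 ± 81.6 and 376 ± 38.4 FPKM (SD, n = 3). Between 11074 and 12300 genes reached 1 FPKM in a library. The read depth is not stated. The 9 values of Adgre1 were whole multiples of a step of 0.0234 FPKM within 0.0006, from 25 to 106 steps. If a step is 1 read, its lowest levels rest on 25 reads. No common step of at least 0.01 FPKM was found for the other 9 members. The labels name 3 sequencing runs: run 1 held Wnt7acre replicate 3, ePRAoe replicate 2 and all of ePRBoe, run 2 Wnt7acre replicate 2 and ePRAoe replicate 3, and run 3 replicate 1 of Wnt7acre and of ePRAoe. Differences below are of log2(FPKM + 1), from a fit of all 9 libraries with terms for genotype and run, and a gene was called where its adjusted p was below 0.05 among 12347 tested genes. All 10 members had at least 1 FPKM in at least 3 libraries and were tested. Each run held 1 library of Wnt7acre and 1 of ePRAoe, so leaving out either gave the same difference between these genotypes. Such a pair of losses below is the loss of 1 run from that comparison.

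Csf1, the ligand, fell in both overexpressing genotypes. In replicates 1 to 3 of Wnt7acre it measured 13.1, 65.0 and 32.2 FPKM, in those of ePRAoe 1.255, 0.481 and 0.946, and in those of ePRBoe 2.475, 1.99 and 1.69. All 6 overexpressing libraries lay far below the lowest control, and the controls themselves spread widely. The means were 36.8 ± 26.2, 0.894 ± 0.390 and 2.05 ± 0.398 FPKM (SD, n = 3), that is 41.1-fold lower in ePRAoe and 17.9-fold lower in ePRBoe as a ratio of means. On the log2 scale the difference was -4.07 (SE 0.41) in ePRAoe, the 21st lowest of 12347 genes, and -3.24 (SE 0.50) in ePRBoe, the 15th lowest. In Wnt7acre 88.0% of all genes had a lower mean than Csf1, against 22.5% in ePRAoe and 28.3% in ePRBoe. Within runs 1, 2 and 3 ePRAoe differed from Wnt7acre by -4.49, -5.08 and -2.64, and within run 1 ePRBoe differed by -3.45. The ePRAoe call held with any 1 library left out, and the ePRBoe call did not hold without Wnt7acre replicate 3 (difference -2.83). The ePRBoe call was also lost with a block for the replicate number added to genotype and run (-3.34). Each ePRBoe library was above each ePRAoe library, at a difference of 0.83 (SE 0.50) that was not called.

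Csf1 lies on chromosome 3, 107741048 to 107760469, reverse strand (mm10, ENSMUSG00000014599.10). Its 250 bases before the transcription start are printed because the gene fell in both genotypes that overexpress a steroid receptor. Capitals mark the hexamer TGTTCT, here on the opposite strand as AGAACA, of which elements of progesterone, glucocorticoid and androgen receptors are built. The sequence is chr3:107760470-107760719, reverse strand, 5′ to 3′, from RefSeq (GRCm38.p6), the assembly behind mm10.
Csf1 promoter: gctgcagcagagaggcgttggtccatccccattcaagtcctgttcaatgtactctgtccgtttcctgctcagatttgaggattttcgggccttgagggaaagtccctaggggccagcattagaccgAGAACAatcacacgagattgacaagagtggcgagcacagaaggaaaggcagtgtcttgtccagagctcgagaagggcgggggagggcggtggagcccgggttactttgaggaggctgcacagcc
The match begins 124 bases before the start. On either strand, TGTTCT occurred in 16.1% of 32851 RefSeq windows of this length, and in 4 of the 5 members that the promoter table held (Csf1, C1qb, C1qc and Laptm5, not Fcer1g). A match describes the letters only.

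Csf1r, the receptor of CSF1, did not follow its ligand in ePRBoe. It stood at 3.88, 4.51 and 3.53 FPKM in Wnt7acre, against 2.77, 1.04 and 1.69 in ePRAoe, and 4.08, 4.47 and 4.65 in the ePRBoe libraries. The ePRAoe libraries were all below the controls, and the ePRBoe libraries overlapped them. Csf1r fell by 0.85 in ePRAoe (SE 0.20, means 3.98 ± 0.496 and 1.83 ± 0.873 FPKM, SD, n = 3), and its difference in ePRBoe was 0.40 (SE 0.24), or 0.12 without a term for the run. Its ePRAoe call did not hold without Wnt7acre replicate 2 or ePRAoe replicate 3 (-0.76 each), Wnt7acre replicate 3 or ePRAoe replicate 2 (-0.71 each), or ePRBoe replicate 2 (-0.85). Csf1 over Csf1r in FPKM was 3.37, 14.4 and 9.12 in Wnt7acre, 0.454 to 0.561 in ePRAoe, with 0.362 to 0.607 in ePRBoe, so the ligand exceeded its receptor in all 3 control libraries and in none of the other 6. In bulk tissue, fewer cells of a type and less RNA per cell cannot be told apart.

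Of the other colony-stimulating factors and receptors, a list of 12 genes with 6 tested, 1 rose in ePRAoe and 0 passed in ePRBoe, where limma gave 1 an unadjusted p under 0.05. The called share was 16.7% in ePRAoe, near the 16.2% of all tested genes, and 0 in ePRBoe, against 8.89%. The gene that rose was Csf3, the granulocyte growth factor, from 5.15 ± 3.65 to 13.4 ± 4.38 FPKM (SD, n = 3; log2 difference 1.36, SE 0.30, adjusted p = 0.0235). It stood at 18.7 ± 2.04 FPKM in ePRBoe (1.22, adjusted p = 0.0887). That call did not hold without the third Wnt7acre library (adjusted p = 0.0570) or the second ePRAoe library (0.0573). Csf2ra, a receptor subunit for GM-CSF, was level at 21.8 ± 4.85, 23.1 ± 6.79 and 24.2 ± 1.14 FPKM in Wnt7acre, ePRAoe and ePRBoe, with differences from Wnt7acre of 0.07 (SE 0.24) and 0.20 (SE 0.29). Kit, the stem cell factor receptor, varied from 4.61 to 43.9 FPKM within Wnt7acre and did not pass (0.38, SE 0.84, and 1.14, SE 1.03). The second ligand of CSF1R, Il34, named after its values were seen, was at 7.35 ± 4.29, 12.7 ± 10.6 and 5.98 ± 2.598 FPKM, with differences of 0.12 and -0.51 that did not pass (adjusted p = 0.925 and 0.743).

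Tyrobp and Fcer1g, the adaptors that carry the ITAM signalling motif for many receptors of myeloid and natural killer cells, moved in opposite directions in the 2 overexpressing genotypes. Tyrobp stood at 71.4, 57.9 and 29.6 FPKM in Wnt7acre, against 30.9, 16.4 and 22.4 in ePRAoe, and 103, 99.3 and 83.1 in the ePRBoe libraries. Wnt7acre replicate 3 lay just under the highest ePRAoe library, and all ePRBoe libraries were above all others. Tyrobp fell by 1.11 in ePRAoe (SE 0.15), and in ePRBoe it rose by 1.499 (SE 0.18), or 0.92 without the run term, at which it was not called. Fcer1g stood at 40.4, 35.7 and 28.9 FPKM in Wnt7acre, against 19.1, 15.6 and 17.3 in ePRAoe, and 56.6, 54.8 and 44.8 in the ePRBoe libraries. Its 3 genotypes did not overlap at any point. Fcer1g fell by 0.97 (SE 0.13) in ePRAoe and rose by 0.76 (SE 0.16) in ePRBoe. Both ePRAoe calls held with any 1 library left out. In ePRBoe the Tyrobp call did not hold without Wnt7acre replicate 3 (1.20), and the Fcer1g call without Wnt7acre replicate 3 (0.65), ePRAoe replicate 2 (0.82) or ePRBoe replicate 1 or 2 (0.70 and 0.72). Without the run term the Tyrobp call in ePRAoe was lost too, at the same difference.

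Receptors that pair with these adaptors, and the kinases below them, were mostly too low to test: 20 of 23 were in the table and 9 were tested. In ePRAoe 0 rose and 1 fell (11.1% of those tested, against 16.2% of all genes). In ePRBoe limma called 0 (against 8.89% of all), with 1 at an unadjusted p under 0.05. The median difference was -0.34 in ePRAoe (-0.03 over all tested genes) and 0.28 in ePRBoe (0.10 over all). Plcg2, a phospholipase downstream of the adaptors, fell from 6.59 ± 3.39 to 1.97 ± 0.617 FPKM (SD, n = 3; log2 difference -1.27, SE 0.35, adjusted p = 0.0476). That call was lost without any 1 of Wnt7acre replicates 2 and 3, ePRAoe replicates 2 and 3 (adjusted p = 0.204 to 0.217) and ePRBoe replicates 1 and 2 (0.0744 and 0.0634). Lyn, a Src family kinase, was at 18.0 ± 1.24, 12.02 ± 6.61 and 13.1 ± 1.03 FPKM and Ptpn6, an inhibitory phosphatase, at 9.63 ± 3.58, 9.76 ± 2.12 and 11.3 ± 2.07, and neither passed in either genotype. Some genes of this list, named after their values were seen, stood high in Wnt7acre replicate 1 alone: the lectin receptors Clec7a (5.80 FPKM, at most 1.0 in the other 8 libraries) and Clec4d (3.19, at most 0.228) and the Fc receptor Fcgr3 (7.25, at most 3.15).

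The 3 chains of C1q were each lowest on average in ePRAoe and highest in ePRBoe. C1qb stood at 23.2, 19.5 and 18.0 FPKM in Wnt7acre, against 20.7, 7.505 and 9.365 in ePRAoe, and 38.2, 39.5 and 27.3 in the ePRBoe libraries. C1qc stood at 23.5, 12.6 and 13.3, at 12.05, 7.645 and 5.41, and at 28.05, 26.5 and 20.6 FPKM. C1qa was lower, at 8.01, 4.57 and 3.51, at 4.36, 1.265 and 3.30, and at 11.3, 11.9 and 7.095 FPKM. For each chain the 3 ePRBoe libraries were above the 3 ePRAoe libraries, and C1qc alone had no overlap between ePRAoe and Wnt7acre, C1qb alone between ePRBoe and Wnt7acre. C1qb over C1qc in FPKM was 0.987 to 1.54 in Wnt7acre, 0.982 to 1.73 in ePRAoe, with 1.32 to 1.49 in ePRBoe, overlapping ranges. C1qc fell in ePRAoe (-0.91, SE 0.16), and C1qa rose in ePRBoe (1.41, SE 0.28, or 0.84 and no longer called without the run term). The other differences from Wnt7acre were not called: -0.71 (SE 0.23) for C1qa and -0.77 (SE 0.23) for C1qb in ePRAoe, and 1.10 (SE 0.28) for C1qb and 0.76 (SE 0.19) for C1qc in ePRBoe. C1qc was no longer called without Wnt7acre replicate 2 or ePRAoe replicate 3 (-0.82 each), or with no run term. C1qa was no longer called without Wnt7acre replicate 3 (1.70), ePRAoe replicate 2 (1.27), ePRBoe replicate 1 (1.33) or ePRBoe replicate 2 (1.29).

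The chains are neighbours, within 18.7 kb on chromosome 4 (136880129 to 136898803, reverse strand, mm10), and 5 of the 10 members lie on that chromosome, since Laptm5 (130913125 to 130936141) and Cd52 (134082448 to 134095082) are there too. The 250 bases before the C1qb start are printed as an example of a myeloid promoter among the members, though C1qb was not called in any comparison. Capitals mark GAGGAA, the core of sites bound by PU.1, the factor that directs myeloid gene expression. The sequence is chr4:136886201-136886450, reverse strand, 5′ to 3′, from RefSeq (GRCm38.p6).
C1qb promoter: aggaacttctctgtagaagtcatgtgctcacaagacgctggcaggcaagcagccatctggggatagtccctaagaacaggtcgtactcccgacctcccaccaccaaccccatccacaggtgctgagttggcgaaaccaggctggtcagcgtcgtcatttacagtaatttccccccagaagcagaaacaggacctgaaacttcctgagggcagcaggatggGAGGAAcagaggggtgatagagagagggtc
The match begins 30 bases before the start. On either strand GAGGAA occurred in 23.2% of the 32851 windows, and in 3 of the 5 members that the table held (C1qb, C1qc and Laptm5, not Csf1 or Fcer1g). The promoters of Csf1r, Tyrobp, C1qa, Adgre1 and Cd52 were not analysed here.

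Other complement genes moved in both directions in each genotype. Of 20 genes, 17 were in the table and 14 were tested. In ePRAoe 2 rose and 5 fell, that is 7 of the 14, where 16.2% of all genes were called. The median there was -0.43 (-0.03 over all tested genes). In ePRBoe 2 rose and 1 fell (21.4%, against 8.89% of all genes), with a median of 0.51 (0.10 over all). C1s1 and C1ra, the proteases that C1q activates, rose in both genotypes. C1s1 went from 2.87 ± 0.378 FPKM in controls to 7.26 ± 2.19 in ePRAoe (1.07, adjusted p = 0.0145) and 13.4 ± 2.48 in ePRBoe (1.93, adjusted p = 0.00785; SD, n = 3). C1ra went from 0.816 ± 0.114 to 2.10 ± 0.981 and 4.83 ± 0.396 FPKM (0.73, adjusted p = 0.0448, and 1.93, adjusted p = 0.00704). Cd55, a membrane inhibitor, fell in ePRAoe from 249 ± 34.3 to 48.1 ± 38.7 FPKM (-2.62, adjusted p = 0.00696) and was at 51.8 ± 11.3 in ePRBoe (-1.90, adjusted p = 0.0582). The central component C3, Serping1 and Cfb, named after their values were seen, fell in ePRAoe as well (-2.91, -2.29 and -1.14, adjusted p = 0.0167, 0.0247 and 0.0420). The C1ra call in ePRAoe was lost without any 1 of the 9 libraries (adjusted p = 0.0540 to 0.179), and those of C1s1 and Cd55 without Wnt7acre replicate 2 (0.0739 and 0.0519) or with ePRAoe replicate 3 left out (0.0761 and 0.0511). C3, Serping1 and Cfb lost theirs without Wnt7acre replicate 2 or 3 or ePRAoe replicate 2 or 3 (0.0571 to 0.183), and Cfb also without ePRBoe replicate 2 or 3 (0.0514 and 0.0516).

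Adgre1, the F4/80 antigen of mature mouse macrophages, had the lowest mean of the members over all 9 libraries, though in ePRBoe Csf1 was lower. It stood at 2.015, 0.937 and 2.30 FPKM in Wnt7acre, against 0.586, 0.586 and 0.820 in ePRAoe, and 1.73, 2.13 and 2.48 in the ePRBoe libraries. The ePRAoe libraries were all below the rest, and the other genotypes overlapped. The differences from Wnt7acre were -0.69 (SE 0.24) in ePRAoe and 0.09 (SE 0.29) in ePRBoe, neither called, and the latter was -0.27 under quantile normalization.

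Laptm5 and Cd52, which lymphocytes express as well as myeloid cells, rose in ePRBoe and were not called in ePRAoe. Laptm5, a lysosomal membrane protein, stood at 14.4, 13.8 and 10.5 FPKM in Wnt7acre, against 13.8, 16.7 and 13.4 in ePRAoe, and 26.5, 31.7 and 28.8 in the ePRBoe libraries. Cd52, a small surface glycoprotein, stood at 35.7, 37.0 and 19.3, at 14.8, 20.7 and 27.5, and at 76.9, 80.1 and 80.2 FPKM. For both genes ePRAoe overlapped Wnt7acre, and every ePRBoe library was above the other 6. The rises in ePRBoe were 1.15 (SE 0.20) for Laptm5 and 1.67 (SE 0.27) for Cd52, and the differences in ePRAoe were 0.17 (SE 0.17) and -0.51 (SE 0.22). Laptm5 was no longer called without Wnt7acre replicate 3 (0.71), ePRBoe replicate 2 (1.09) or ePRBoe replicate 3 (1.16), and Cd52 without Wnt7acre replicate 3 (1.07). Among 11 ratios between members, 1 was singled out after its values were seen: relative to the adaptor Fcer1g, Laptm5 was 0.356, 0.387 and 0.364 in Wnt7acre, 0.723, 1.07 and 0.772 in ePRAoe and 0.468, 0.578 and 0.642 in ePRBoe. No 2 genotypes overlapped in this ratio, which was highest in ePRAoe.

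**Figure D1:**
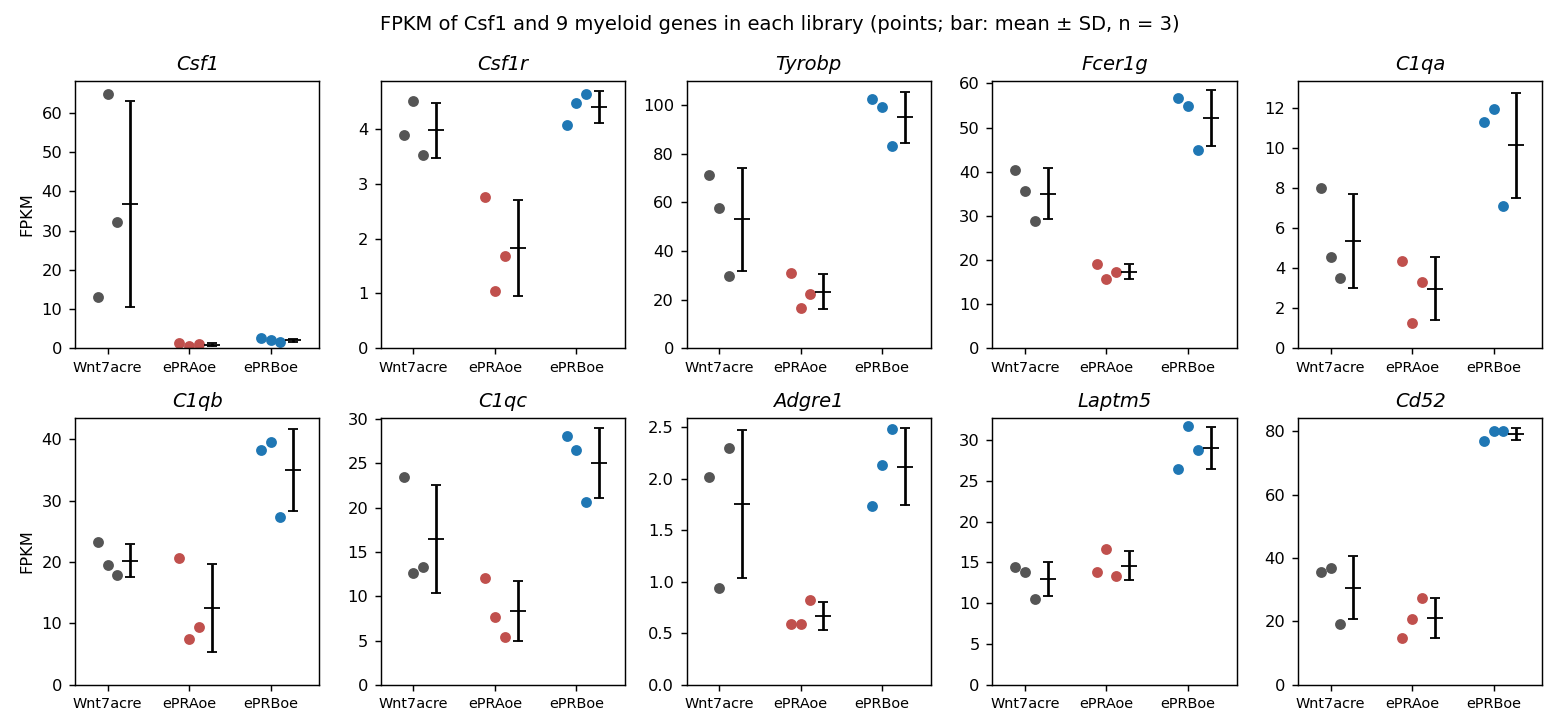
Level of each gene in FPKM (vertical axis, from 0) for the 3 genotypes (horizontal axis), with 1 point per library in order of replicate and the mean ± SD (n = 3) as a bar. Csf1 is high in Wnt7acre alone, while the 9 myeloid genes are lower in all 3 ePRAoe libraries than in any ePRBoe library.

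Set side by side, the genotypes order differently for the ligand and for the myeloid transcripts. In ePRAoe 5 of the 10 members were called, all lower (Csf1, Tyrobp, Fcer1g, C1qc and Csf1r), where 16.2% of all tested genes were called, 7.2% higher and 8.98% lower. In ePRBoe 6 were called, 5 higher (Tyrobp, Cd52, Laptm5, C1qa and Fcer1g) and Csf1 lower, where 8.89% of all genes were called, 6.41% higher and 2.48% lower. Between ePRBoe and ePRAoe 5 were called, all higher in ePRBoe, where 0.324% of all genes were called, 0.316% higher and 0.0081% lower. Those 5 were Tyrobp (2.61, SE 0.18), Fcer1g (1.73, SE 0.16), C1qc (1.67, SE 0.19), Cd52 (2.19, SE 0.27) and C1qa (2.12, SE 0.28). The rest were 1.87 (SE 0.28) for C1qb, 1.25 (SE 0.24) for Csf1r, 0.98 (SE 0.20) for Laptm5, 0.83 for Csf1 and 0.78 (SE 0.29) for Adgre1. The members were proposed with these contrasts in view, so nothing is read from the counts, and the first 2 comparisons share the 3 Wnt7acre libraries.

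Overlap between libraries was counted on the same values, and it differed in part from the calls. Tyrobp in ePRAoe and C1qa in ePRBoe were called though their libraries overlapped those of Wnt7acre. Adgre1 in ePRAoe and C1qb in ePRBoe had no such overlap and were not called. All 3 ePRAoe libraries were below all 3 Wnt7acre libraries for 5 members (Csf1, Csf1r, Fcer1g, C1qc and Adgre1; 16.2% of all genes) and above for 0 (12.6%). All 3 ePRBoe libraries were above Wnt7acre for 5 (Tyrobp, Fcer1g, C1qb, Laptm5 and Cd52; 23.5% of all genes) and below for Csf1 (16.3%). All 3 ePRBoe libraries were above all 3 ePRAoe libraries for all 10 members (16.8%, with 5.8% of genes the other way round). The genotype means rose in the order ePRAoe, Wnt7acre, ePRBoe for 8 members, the exceptions being Csf1 and Laptm5.

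**Figure D2:**
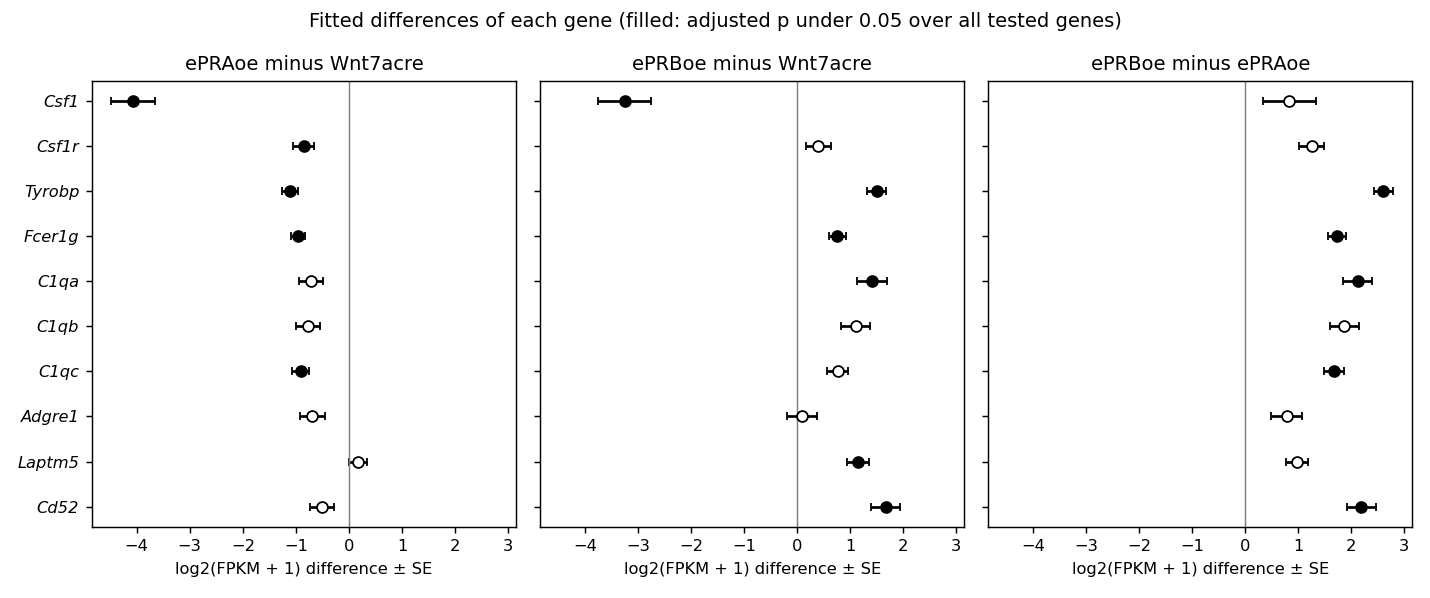
Fitted difference in log2(FPKM + 1) with its SE (horizontal axis) for each gene (vertical axis) in the 3 comparisons, with filled points where the gene was called. Csf1 stands at -4.07 and -3.24 against Wnt7acre, while the other members lie below or near 0 in ePRAoe and at or above 0 in ePRBoe.

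The run and single libraries touched these values. Within each of the 3 runs the ePRAoe library was below the Wnt7acre library for 8 members, and Laptm5 and Cd52 were above it in run 1 (0.62 and 0.09). All of ePRBoe shared a run with a single control, Wnt7acre replicate 3, which was the lowest Wnt7acre library for 7 members, and ePRAoe replicate 2 was the lowest of all 9 libraries for 7 members, ties included. Without Wnt7acre replicate 3 none of the 6 ePRBoe calls among the members remained. That library was the only control in run 1, so without it ePRBoe met the controls only through ePRAoe replicate 2 and the run term. Without ePRAoe replicate 2, ePRBoe replicate 1 or ePRBoe replicate 2 none of the 5 calls between ePRBoe and ePRAoe remained, without Wnt7acre replicate 3 there was 1, and without Wnt7acre replicate 2 or ePRAoe replicate 3 there were 2. Without replicate 1 of Wnt7acre or of ePRAoe there were 8 in that comparison. In ePRAoe against Wnt7acre 3 calls were left without Wnt7acre replicate 2 or ePRAoe replicate 3, and in ePRBoe against Wnt7acre 3 without ePRBoe replicate 2. Without the run term Tyrobp, C1qa, C1qc and Cd52 also lost the call between ePRBoe and ePRAoe (2.02, 1.54, 1.53 and 1.90). Quantile normalization ended the calls of C1qa (1.86) and Cd52 (2.08) there, median-of-ratios factors those of Cd52 (2.00, between ePRBoe and ePRAoe) and Fcer1g (0.61, ePRBoe against Wnt7acre), and no filter on low values that of C1qa between ePRBoe and ePRAoe. With only the 2 genotypes compared, in shared runs, Csf1r lost its call in ePRAoe and C1qa its call in ePRBoe (1.27), while Csf1r (1.40) and C1qb (2.06) gained one between ePRBoe and ePRAoe. The mean log2(FPKM + 1) of the 9 members other than Csf1 was 4.11, 3.80 and 3.54 in Wnt7acre, 3.37, 2.87 and 3.10 in ePRAoe and 4.58, 4.64 and 4.41 in ePRBoe. That mean thus placed all ePRAoe libraries below the controls and all ePRBoe libraries above them.

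**Figure D3:**
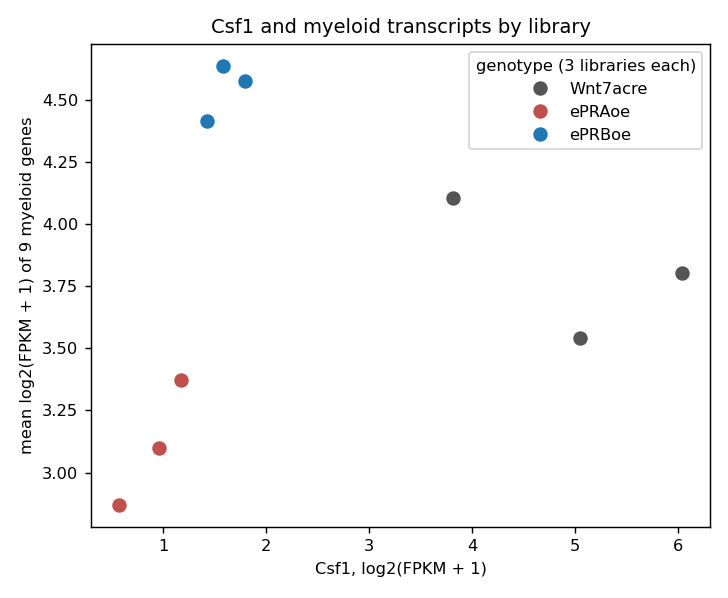
Csf1 in log2(FPKM + 1) (horizontal axis) against the mean log2(FPKM + 1) of the other 9 members (vertical axis), 1 point per library, coloured by genotype. The overexpressing genotypes share a low Csf1 and lie at opposite ends of the vertical axis, at 2.87 to 3.37 in ePRAoe and 4.41 to 4.64 in ePRBoe.

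A list of 25 further macrophage genes, none of them a member, was counted in the same fit. Of these, 24 were in the table and 19 were tested. In ePRAoe 1 rose and 3 fell (21.05% of those tested, against 16.2% of all genes). The median difference was -0.68 (-0.03 over all tested genes). In ePRBoe 1 rose and 0 fell (5.26%, against 8.89% of all genes), with a median of 0.38 (0.10 over all). Between ePRBoe and ePRAoe limma called 0, with 13 at an unadjusted p under 0.05, and the median was 1.06 (0.15 over all). Lgmn, a lysosomal protease, fell in ePRAoe from 77.6 ± 23.4 to 24.8 ± 15.5 FPKM (SD, n = 3; -1.74, adjusted p = 0.0103), and Ctss, cathepsin S, from 16.5 ± 11.1 to 7.40 ± 3.72 (-0.96, adjusted p = 0.0240). Cyba, an NADPH oxidase subunit and named after its values were seen, fell too (-1.76, adjusted p = 0.0351). Cd14, a co-receptor for bacterial lipopolysaccharide, rose in both genotypes, from 48.0 ± 19.0 to 73.1 ± 20.2 FPKM in ePRAoe (0.63, adjusted p = 0.0165) and 75.9 ± 5.05 in ePRBoe (0.80, adjusted p = 0.0226). The calls of Lgmn, Cyba and Cd14 in ePRAoe did not hold without Wnt7acre replicate 2 or 3 or ePRAoe replicate 2 or 3 (adjusted p = 0.0653 to 0.173), and Cyba also without ePRBoe replicate 3 (0.0547). That of Ctss was lost without replicate 1 of Wnt7acre (0.0660) or of ePRAoe (0.0646), Wnt7acre replicate 3 (0.128) or ePRAoe replicate 2 (0.126). The ePRBoe call of Cd14 did not hold without Wnt7acre replicate 3 (0.196), ePRAoe replicate 2 (0.0542) or any 1 ePRBoe library (0.0543 to 0.0808).

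Of 15 chemoattractants of monocytes and macrophages and their receptors, 12 were in the table and 9 were tested. In ePRAoe 0 rose and 4 fell (median -0.81), and in ePRBoe 0 rose and 1 fell (median 0.21). That is 44.4% and 11.1% of those tested, against 16.2% and 8.89% of all genes. Ccl12, a monocyte chemokine, was at 1.70, 5.67 and 5.11 FPKM in Wnt7acre, at 0.709, 0.851 and 0.284 in ePRBoe, and in ePRAoe was listed at 0 in replicates 1 and 2 and at 0.284 in replicate 3. It fell by 2.14 in ePRAoe (adjusted p = 0.00396) and by 1.70 in ePRBoe (adjusted p = 0.0237), the second of which was lost without ePRAoe replicate 2 (0.0523) or any 1 ePRBoe library (0.0548 to 0.0687). Cxcl16, a chemokine of epithelia and macrophages, fell in ePRAoe from 17.6 ± 5.73 to 7.83 ± 2.66 FPKM (-1.08, adjusted p = 0.00706) with any 1 library left out. Mif, macrophage migration inhibitory factor, fell from 140 ± 55.2 to 55.3 ± 13.3 FPKM (-1.28, adjusted p = 0.00951), and lost the call without Wnt7acre replicate 2 or 3 or ePRAoe replicate 2 or 3 (0.0594 to 0.0635). Ccr2, the receptor of inflammatory monocytes, named after its values were seen, fell by 1.00 in ePRAoe (adjusted p = 0.0290), and the call was lost without any 1 Wnt7acre or ePRAoe library (0.0768 to 0.0983).

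Summed levels of natural killer cell markers and pan-leukocyte genes were highest in the 3 ePRBoe libraries and overlapped between ePRAoe and Wnt7acre. The T cell, dendritic cell and endothelium sums were also highest in those 3 libraries, and that of the further macrophage genes was not. Most of the T cell sum came from 1 gene, Thy1, described below. The part of these lists in the members' levels was not tested. Natural killer cells, which express Tyrobp and Fcer1g, had all 12 markers tested. In ePRAoe 2 rose and 0 fell (16.7% of those tested, against 16.2% of all genes). In ePRBoe 7 rose and 0 fell (58.3%, against 8.89% of all genes). In the comparison of ePRBoe with ePRAoe, which called 0.324% of all genes, 3 of the 12 were called, all higher in ePRBoe. The median difference was -0.24 in ePRAoe, where 4 markers had a positive and 8 a negative difference, and 1.29 in ePRBoe, where all 12 were positive. Their summed level was 23.2 to 45.7 FPKM in Wnt7acre, 27.9 to 51.9 in ePRAoe, with 81.3 to 128 in ePRBoe. Gzmb and Gzmc, granzymes, rose in both genotypes (1.77 and 1.84 in ePRAoe, adjusted p = 0.00210 and 0.00466; 2.43 and 3.26 in ePRBoe, adjusted p = 0.00303 and 0.00317). Nkg7, a granule protein, Il2rb, an interleukin receptor subunit, and Klrd1, a lectin receptor, were higher in ePRBoe than in ePRAoe by 2.40, 2.26 and 1.93 (adjusted p = 0.0129, 0.0224 and 0.0396). Those last 3 calls were lost without ePRAoe replicate 2 (0.349, 0.496 and 0.511), Wnt7acre replicate 3 (0.0501, 0.0596 and 0.0666), ePRBoe replicate 1 (0.123, 0.123 and 0.170) or ePRBoe replicate 2 (0.0798, 0.102 and 0.127), and for Il2rb and Klrd1 also without Wnt7acre replicate 2 (0.0506 and 0.0756) or with ePRAoe replicate 3 left out (0.0518 and 0.0798).

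Of 14 pan-leukocyte genes all were in the table and 11 were tested. In ePRAoe 1 rose and 0 fell (median -0.36), and in ePRBoe 1 rose and 0 fell (median 1.01), with summed levels of 55.1 to 91.1, 73.1 to 80.2 and 126 to 161 FPKM in Wnt7acre, ePRAoe and ePRBoe. The called share was 9.09% in each comparison, against 16.2% and 8.89% of all genes. Ikzf1, a lymphoid transcription factor, rose in ePRAoe from 6.47 ± 2.75 to 15.6 ± 6.90 FPKM (SD, n = 3; 1.14, adjusted p = 0.00700). Rac2, a GTPase of blood cells, was called higher in ePRBoe in the fit with the run term (1.23, adjusted p = 0.0418). Its means were 4.92 ± 2.97 FPKM in Wnt7acre and 7.35 ± 2.46 in ePRBoe, within overlapping SDs. These means differ by less than the fitted difference, and without the run term Rac2 was not called. It also lost the call without Wnt7acre replicate 2 or 3 (0.0713 and 0.276), ePRAoe replicate 2 or 3 (0.107 and 0.0703) or ePRBoe replicate 1 or 2 (0.0948 and 0.116). Arhgdib, a regulator of GTPases, was at 14.9 ± 2.88, 21.3 ± 8.97 and 42.3 ± 4.59 FPKM and Srgn, a granule proteoglycan, at 11.7 ± 4.32, 15.5 ± 9.51 and 30.3 ± 1.84, with adjusted p = 0.0558 and 0.0584 in ePRBoe.

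Of 11 T cell markers 7 were in the table and 4 were tested. Thy1, which stromal cells can also carry, rose in ePRBoe (1.504, adjusted p = 0.00657) and was at 44.2 ± 7.08 FPKM there, against 17.1 ± 1.81 in Wnt7acre and 21.9 ± 4.81 in ePRAoe (SD, n = 3). Cd2, an adhesion receptor, fell in ePRAoe (-1.04, adjusted p = 0.0399), and Lck, the T cell kinase, was at 2.41 ± 0.943, 2.40 ± 0.714 and 4.08 ± 1.51 FPKM without passing. Cd2 was no longer called without Wnt7acre replicate 2 or 3, or ePRAoe replicate 2 or 3 (0.140 to 0.173) or ePRBoe replicate 1 or 2 (0.0600 and 0.0561). Among 9 dendritic cell markers 7 were in the table and 3 were tested. Here too 1 fell in ePRAoe and 1 rose in ePRBoe (33.3% each, against 16.2% and 8.89%). Itgax, the integrin CD11c, fell in ePRAoe from 2.46 ± 1.57 to 0.321 ± 0.0755 FPKM (-1.28, adjusted p = 0.0338). Irf8, a factor of monocytes and dendritic cells, rose in ePRBoe from 1.16 ± 0.156 to 3.00 ± 0.345 FPKM (1.11, adjusted p = 0.0363). The Itgax call was lost without any 1 library of Wnt7acre or ePRAoe (0.0518 to 0.165) or ePRBoe replicate 2 (0.0535), and the Irf8 call without Wnt7acre replicate 2 or 3, ePRAoe replicate 2 or 3, or any 1 ePRBoe library (0.0586 to 0.111).

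Neutrophil, B cell, mast cell and eosinophil markers were near the floor with 1 exception. S100a8 and S100a9, calprotectin subunits of neutrophils, stood at 24.4 and 33.5 FPKM in Wnt7acre replicate 1 and at no more than 0.776 and 0.726 in the other 8 libraries. That library also had the highest control levels of Tyrobp, Fcer1g and the 3 C1q chains, and the part of the neutrophil signal in them was not tested. Without it Tyrobp differed by -1.07 in ePRAoe and 1.52 in ePRBoe, Fcer1g by -0.92 and 0.78, and C1qb by -1.07 and 0.95, with C1qb then called in both. Of 8 B cell markers 3 were in the table, none tested, with Cd79b at most at 1.36 FPKM and Cd22 at 0.378. Of 9 mast cell and eosinophil markers Siglecf alone was in the table, at most at 0.606 FPKM, in Wnt7acre replicate 1.

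Markers of cells beneath the epithelium differed as well, and their part in the members' levels was not tested. All 12 stroma markers were tested: 9 rose in ePRAoe and 10 in ePRBoe (75.0% and 83.3%, against 16.2% and 8.89% of all genes), with 0 falling. Their summed level was 85.0 to 118 FPKM in Wnt7acre, 222 to 381 in ePRAoe, with 377 to 540 in ePRBoe. Col6a1 and Col6a2, collagen VI chains, rose by 1.59 and 1.51 in ePRAoe (adjusted p = 0.00147 and 0.00304) and by 2.43 and 2.28 in ePRBoe (0.00169 and 0.00318), Col3a1 by 1.57 in ePRAoe (0.00366) and the fibroblast receptor Pdgfra by 2.36 in ePRBoe (0.00458). Among the members 5 fell in ePRAoe, while 5 rose and 1 fell in ePRBoe, and a link to the stroma markers was not tested. Of 9 endothelium markers 7 were tested, and 2 rose in ePRBoe (28.6%, against 8.89% of all genes). They were Cdh5 (1.87, adjusted p = 0.0112) and Eng (1.67, adjusted p = 0.0229). Neither was called without Wnt7acre replicate 3 (0.0505 and 0.0607) or with ePRAoe replicate 2 left out (0.05003 and 0.0801), nor Eng without ePRBoe replicate 1 or 2 (0.0537 and 0.0619). In ePRAoe limma called 0 endothelium markers, with 0 at an unadjusted p under 0.05. Among 12 luminal epithelium markers 2 rose and 1 fell in ePRAoe. Esrp1, a splicing regulator (0.61, adjusted p = 0.0138), and Elf3, an epithelial transcription factor (0.74, 0.0144), rose, and Elf3 also rose in ePRBoe (1.01, 0.0158). Esrp1 and Elf3 lost the ePRAoe call without Wnt7acre replicate 2 or 3 or ePRAoe replicate 2 or 3 (0.0520 to 0.0696). Elf3 lost the ePRBoe call without Wnt7acre replicate 3, ePRAoe replicate 2 or ePRBoe replicate 3 (0.0562 to 0.0989).

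Some calls of the genes named from these lists rested on other choices as well. With no run term Csf3, C1ra, Cfb, Ctss, Cd14, Ikzf1, Cd2 and Elf3 were not called in ePRAoe, nor Cd14, Rac2, Klrd1, Il2rb and Elf3 in ePRBoe, nor Nkg7, Il2rb and Klrd1 between ePRBoe and ePRAoe. With only the 2 genotypes compared, in shared runs, Csf3, C1ra, Plcg2, Ctss, Cyba, Cd14, Ccr2, Cd2, Itgax and Esrp1 were not called in ePRAoe, nor Rac2, Klrd1, Irf8 and Eng in ePRBoe. With no filter on low values Plcg2 and C1ra in ePRAoe, Rac2 in ePRBoe and Klrd1 between ePRBoe and ePRAoe were not called. Quantile normalization ended the calls of Plcg2 in ePRAoe and of Rac2 and Irf8 in ePRBoe, and median-of-ratios factors that of Cd14 in ePRBoe.

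**Figure D4:**
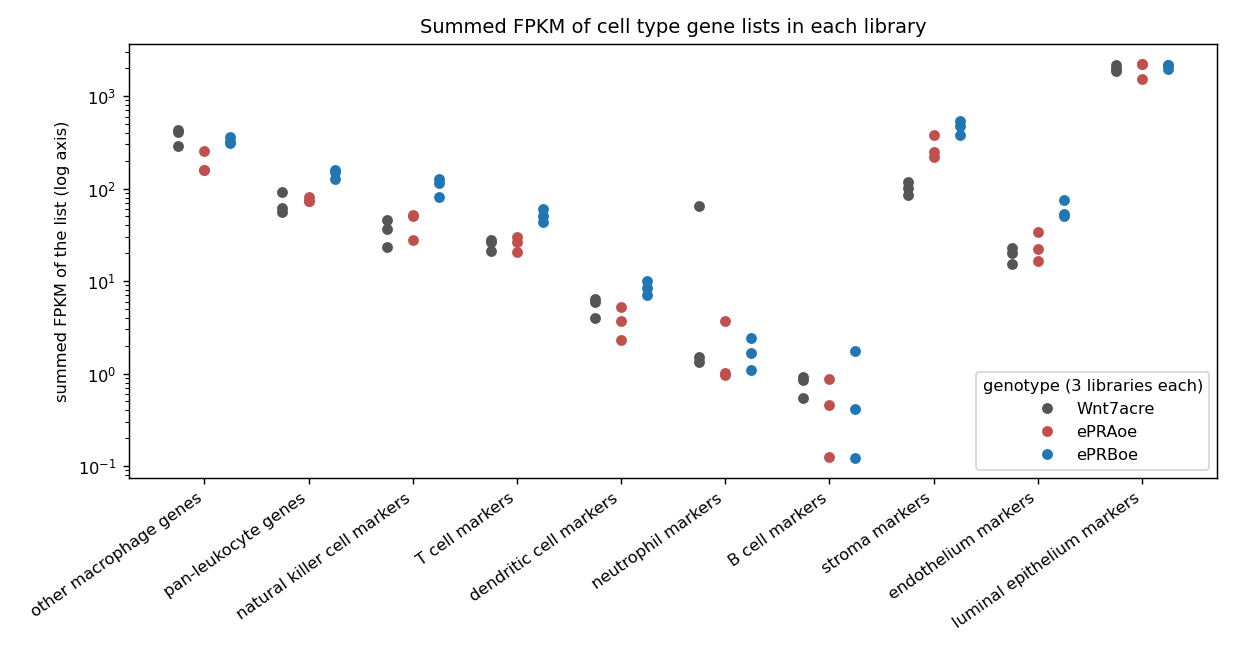
Summed FPKM of each list of marker genes (vertical axis, log scale) for each of the 9 libraries, grouped by list (horizontal axis) and coloured by genotype. Natural killer cell, pan-leukocyte, T cell, dendritic cell and endothelium sums are highest in the 3 ePRBoe libraries. The T cell sum is mostly Thy1, which stromal cells can also carry. Stroma sums are above Wnt7acre in all 6 overexpressing libraries, and the neutrophil sum is high in Wnt7acre replicate 1 alone (65.0 FPKM).

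Likeness to other genes was described by Pearson's r of log2(FPKM + 1) over the 9 libraries, which fall into 3 genotypes, among 8250 tested genes, those averaging 5 FPKM or more without the members and predicted genes (Gm and Rik symbols). The 5 genes most like Csf1 were Vps13c (0.993), a lipid transfer protein, Nfe2l1 (0.993), a transcription factor of proteasome genes, Ifit1bl1 (0.989), Tmem62 (0.989) and Abca1 (0.987), a cholesterol exporter. Their means in Wnt7acre, ePRAoe and ePRBoe were 32.9, 11.8 and 13.9 FPKM for Vps13c and 86.8, 31.6 and 33.8 FPKM for Abca1, and each of the 5 was highest in Wnt7acre. Among the 8 most like the mean of the other 9 members were Tmem9 (0.962), Ctdspl (0.960), Klrd1 (0.948), Plekhb1 (0.947), Ints5 (0.940), Lcp1 (0.938) and Trip6 (0.937). Of these, Klrd1 is a receptor of natural killer cells and Lcp1, L-plastin, an actin bundler of leukocytes. Lcp1 had means of 11.6 ± 3.71, 8.02 ± 1.71 and 20.8 ± 4.89 FPKM (SD, n = 3), and Tmem9, a lysosomal membrane protein, 29.6 ± 1.88, 22.5 ± 5.75 and 41.6 ± 2.52.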

How the data were processed

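RNA of laser-captured uterine luminal epithelium was measured in 9 mouse libraries, 3 of each genotype. The authors deposited 1 table of FPKM values for 15158 gene symbols. Per the submitters' processing notes, STAR 2.5.2b, featureCounts 1.5.0-p1, Subread, edgeR 3.28.0 and limma 3.42.2 were used with the build mm10; the annotation, strand setting and gene lengths are, for the sources used here, not given. FPKM are no counts, so no count model was fitted, and depth is not stated. limma 3.58.1 in R 4.3.3 was fitted to log2(FPKM + 1) for 12347 genes, those reaching 1 FPKM in 3 or more libraries (2811 were not tested), with terms for genotype and the run named in the labels, a mean-variance trend (residual degrees of freedom 4, prior 3.64), two-sided, and Benjamini-Hochberg adjustment over all tested genes at 0.05. Differences understate the change of low genes. Positions came from GENCODE M21 (mm10), where 14970 symbols (98.8%) matched, and promoters from RefSeq, for 5 of the 10 members.

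The members and lists were chosen with earlier results of these data known. From each list, up to 3 called genes per comparison with the largest moderated t were named, or the 2 with the highest mean where fewer than 2 passed; genes outside this rule are marked, and some genes it named are not reported here. List counts and medians stand in for list tests. Alternatives varied the pseudocount, filter, scaling, run term, replicate block and libraries.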

Additional observations from a re-analysis of the deposited data

How the results depend on the processing

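The genes called numbered 1998 between ePRAoe and Wnt7acre, 1098 between ePRBoe and Wnt7acre and 40 between ePRBoe and ePRAoe; the members called were 5, 6 and 5, and the other macrophage genes 4, 1 and 0. Leaving out 1 library at a time gave 723 to 2705, 231 to 1604 and 0 to 576 genes, 3 to 6, 0 to 7 and 0 to 8 members, and 0 to 4, 0 to 3 and 0 to 6 other macrophage genes. A block for the replicate number, added to genotype and run, gave 917, 282 and 0 genes, 4, 1 and 0 members and 1, 0 and 0 other macrophage genes; the numbers did not pair the samples, since deviations of same-numbered libraries correlated at -0.23 to 0.171. Without a run term there were 1479, 1786 and 7 genes, 3, 4 and 1 members and 2, 0 and 0 other macrophage genes. With only the libraries of the genotypes compared, in shared runs, there were 1063 genes and 1 other macrophage gene for ePRAoe, and 479 genes and 5 other macrophage genes between ePRBoe and ePRAoe. A mean of at least 5 FPKM, which tests fewer genes, left 653 for ePRBoe. Between ePRBoe and ePRAoe, no filter gave 19 genes, median-of-ratios factors 22 and quantile normalization 15, the last with 3 members; median-of-ratios factors left 0 other macrophage genes for ePRBoe. Apart from the construction of these settings, the cause was not tested. The factors and quantiles moved the median of all genes by -0.134 and -0.129 for ePRBoe against Wnt7acre and by -0.171 and -0.185 for ePRBoe against ePRAoe, and the share of higher calls in the former from 72.1% to 56.4% and 55.7%. No called member changed sign under any setting run. Depth is not stated, so no counting interval could be given.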
